A study of Arabidopsis thaliana with 15 samples.

Results

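BLADE-ON-PETIOLE1 (BOP1, AT3G57130) and BLADE-ON-PETIOLE2 (BOP2, AT2G41370) were followed through every library of an RNA sequencing study of the Arabidopsis thaliana inflorescence. They were 2 of the 28775 genes counted, and both were among the 21716 genes with enough reads to be tested. The pair was chosen by its values in these data: both genes were higher 5 h after SHOOT MERISTEMLESS (STM) was activated, and BOP2 was also higher in a line that silences STM. Their values in those comparisons, and in others that use the same activated or silenced libraries, are therefore given as a description with no test. Tests are given for the 4 comparisons without those libraries. Of these, 3 use the mock or ap1-1 libraries, which were the reference side of the comparisons that chose the pair, so their p-values are not fully independent of the choice.

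The study sequenced 15 libraries of inflorescence meristem tissue from 6-week-old plants kept at 21 °C, all in the Ler background. Wild type (n = 2), the single mutant ap1-1 (n = 3) and the line pAP1>>miR STM/BP ap1-1 (n = 2) carry no treatment in the labels. The last of these, called the microRNA line here, has a microRNA against STM and BREVIPEDICELLUS (BP, also KNAT1) driven from the AP1 promoter. It also carries the ap1-1 mutation. In which cells the silencing took place was not tested. Plants with 35s::STM-GR, in which a constitutive promoter drives STM fused to the hormone-binding part of the glucocorticoid receptor, were sprayed with 10 µM dexamethasone (DEX) in 0.02% Silwet (n = 3) or with 0.02% Silwet alone (mock, n = 3). Wild type was also sprayed with the same DEX solution (n = 2), and all sprayed plants were sampled after 5 h. The labels do not say whether replicates came from separate plants or sowings, so p-values measure only the spread between these samples, which may be technical. They also do not say whether a transgenic line is 1 insertion event or how many plants went into a library.

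BOP1 and BOP2 are transcriptional co-regulators with a BTB/POZ domain and ankyrin repeats, relatives of the salicylic acid receptor NPR1. They have no DNA-binding domain of their own, act through TGA-type bZIP factors such as PERIANTHIA (PAN), and join CUL3 ubiquitin ligases. They work redundantly at the bases of leaves and floral organs, where they restrain growth of the blade along the petiole. They promote floral meristem identity with LEAFY (LFY) and APETALA1 (AP1), and are needed for abscission zones. In stems they are held down by the KNOX protein BP and its BELL partner PENNYWISE (PNY).

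The loci lie on different chromosomes. In the RefSeq annotation of assembly TAIR10.1, BOP1 spans chr3:21147558-21150238 on the plus strand and BOP2 spans chr2:17237727-17240609 on the minus strand. Each gene has 2 exons. The coding sequences are 1404 and 1476 bases long and encode proteins of 467 and 491 residues. The aligned proteins were identical at 401 of 463 positions (86.6%), and the aligned coding sequences at 1150 of 1393 positions (82.6%).

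Because the genes are so alike, the length of sequence they share bears on whether a read could be counted for the wrong one. The longest run shared by the 2 messenger RNAs was 32 bases, from coding position 535 of BOP1 and position 550 of BOP2, and it is shown because a read longer than it cannot match both exactly.

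shared run: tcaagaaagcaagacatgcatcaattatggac

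Of all 25-base windows, 9 of 1811 in BOP1 (0.497%) and 9 of 2150 in BOP2 (0.419%) occurred in the other messenger RNA, and of the 50-base windows 0 did in either gene. BOP1 overlaps no annotated gene. BOP2 shares 607 bases with AT2G41375 on the opposite strand, a locus that is not among the genes counted. Whether reads were counted by strand is not given in the sources used here, so reads from the BOP2 locus may include some from that strand.

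The 250 bases before the annotated start of each gene are shown because KNOX proteins bind sites with the core TGAC and TGA factors bind TGACG. The sequences are those of the reference accession Columbia, not of Ler, in TAIR10.1, read 5′ to 3′ along the gene, with TGAC on either strand in capitals. They come from chr3:21147308-21147557 (plus strand) for BOP1 and from chr2:17240610-17240859 (minus strand) for BOP2.

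BOP1 upstream: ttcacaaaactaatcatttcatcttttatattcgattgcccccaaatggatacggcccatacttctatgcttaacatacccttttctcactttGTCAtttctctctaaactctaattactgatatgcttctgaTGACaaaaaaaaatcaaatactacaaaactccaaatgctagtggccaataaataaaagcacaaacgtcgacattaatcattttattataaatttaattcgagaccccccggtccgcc

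BOP2 upstream: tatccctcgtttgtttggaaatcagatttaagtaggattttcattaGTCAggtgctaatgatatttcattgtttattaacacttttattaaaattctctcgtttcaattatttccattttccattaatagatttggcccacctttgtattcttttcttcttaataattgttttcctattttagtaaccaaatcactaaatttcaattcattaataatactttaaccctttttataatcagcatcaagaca

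The BOP1 window held TGAC at position -157 on the opposite strand and at position -117 on the same strand, counted back from the start. The BOP2 window held it once, at position -204 on the opposite strand. The core was present in 75.5% of the 27443 upstream windows of protein-coding genes, searched on both strands, so these matches are common. The longer KNOX site TGACAG (5.86% of windows) and the TGA site TGACG (18.6%), both of which begin with that core, were in neither window.

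BOP2 was the more abundant of the pair in every library, and both genes were highest in STM-GR plants given DEX. In wild type, BOP1 had 79 and 85 counts and BOP2 had 469 and 461 counts. As CPM, counts relative to the library total after TMM scaling, this was 3.24 and 3.51 for BOP1 and 19.2 and 19.0 for BOP2. Per kilobase of coding sequence the mean level was 2.40 ± 0.138 CPM for BOP1 and 13.0 ± 0.0822 CPM for BOP2 (SD, n = 2), so the difference in level is not one of gene length.

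After DEX in STM-GR plants, BOP2 stood far above every other library of the study. The 3 mock libraries had 23.6, 27.5 and 22.9 CPM of BOP2, from 598, 585 and 552 counts. The 3 DEX libraries had 116, 128 and 132 CPM, from 2866, 3432 and 3261 counts. The lowest DEX library was above the highest mock library, and the groups did not overlap. Groups of 2 or 3 libraries can separate without a difference in level, and the share of all genes that separate is not given. Here and below nothing is read from separation alone. The log2 fold change was 2.35 ± 0.09 (SE), a 5.10-fold difference, which placed BOP2 at rank 23 from the top among the 21716 genes tested. In tissue of many cell types, more cells that express a gene and more of its RNA per cell cannot be told apart.

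BOP1 was also higher in the STM-GR libraries given DEX, by less than BOP2. It had 3.66, 4.08 and 3.19 CPM in the mock libraries (93, 87 and 77 counts) and 6.57, 6.85 and 7.75 CPM in the DEX libraries (162, 184 and 191 counts). The groups again did not overlap. The log2 fold change was 0.95 ± 0.15, or 1.94-fold, at rank 339. Of all genes tested, 5.56% were called higher and 7.15% lower in this comparison (edgeR quasi-likelihood test, adjusted p under 0.05), and since the pair was chosen here nothing is read from where it falls.

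**Figure D1:**
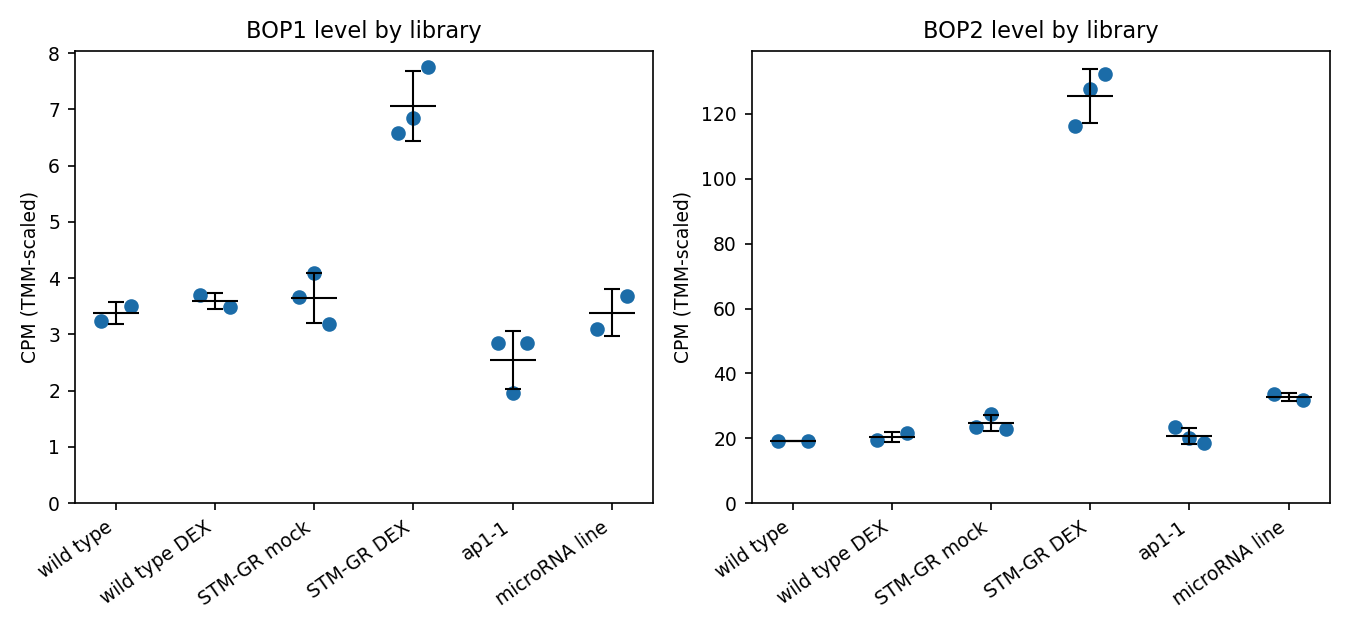
Level of BOP1 (left) and BOP2 (right) in each library, in TMM-scaled CPM on linear axes from 0, by group; each point is a library and the bars give the group mean ± SD. The STM-GR DEX libraries sit between 6.57 and 7.75 CPM for BOP1 and between 116 and 132 CPM for BOP2, above all other libraries of the same gene.

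The DEX spray was also given to wild type, and neither gene was called there. BOP1 had 3.69 and 3.49 CPM in the DEX-sprayed wild type and a log2 fold change of 0.09 ± 0.19 against unsprayed wild type (95% interval -0.33 to 0.50, edgeR adjusted p = 0.934), and its groups overlapped. BOP2 had 19.4 and 21.5 CPM, both above the unsprayed libraries, with a log2 fold change of 0.10 ± 0.12 (interval -0.15 to 0.35, adjusted p = 0.849). Neither difference passed the test. In this comparison 0.484% of genes were called higher and 0.134% lower.

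Compared with DEX-sprayed wild type in place of mock-sprayed transgenics, the DEX-sprayed STM-GR libraries gave log2 fold changes of 0.97 ± 0.17 for BOP1 and 2.61 ± 0.11 for BOP2, the latter 6.12-fold. In that comparison 4.92% of genes were called higher and 5.92% lower. It shares its 3 STM-GR DEX libraries with the comparison against mock, so the values are given side by side and neither supports the other. The DEX response in STM-GR plants minus that in wild type was 0.87 ± 0.25 for BOP1 and 2.25 ± 0.15 for BOP2 on the log2 scale. For that difference 0.944% of all genes were called higher and 0.985% lower. Its 2 responses do not have the same baseline, since the mock plants had Silwet and the unsprayed wild type had none.

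Mock-sprayed STM-GR plants carried the transgene without DEX, and BOP2 averaged a little above wild type in them, a difference that was not called. These plants were also sprayed with Silwet and the wild type was unsprayed, so transgene and spray cannot be told apart here. Its log2 fold change against unsprayed wild type was 0.36 ± 0.11 (interval 0.13 to 0.59). All 3 mock libraries were above both wild type libraries, which in groups this small is no result by itself. The unadjusted p was 0.00446 and the edgeR adjusted p was 0.118, so it did not pass the threshold, and under the other settings tried the adjusted p lay between 0.0741 and 0.607. BOP1 differed by 0.11 ± 0.18 (interval -0.27 to 0.49, adjusted p = 0.844) with overlapping groups. In this comparison 0.949% of genes were called higher and 0.741% lower.

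Against DEX-sprayed wild type the same 3 mock libraries were used again, so the values are no independent check of those against unsprayed wild type. Both transgene and DEX differ between these groups, and they cannot be told apart. The BOP2 log2 fold change was 0.26 ± 0.11 (interval 0.03 to 0.49, unadjusted p = 0.0268, edgeR adjusted p = 0.723), with no overlap of groups. BOP1 differed by 0.02 ± 0.18 (interval -0.36 to 0.40, adjusted p = 1.00) with overlapping groups, and its sign turned to -0.069 without mock replicate 2 and to -0.026 without wild type DEX replicate 2. Only 0.0184% of genes were called higher and 0.0138% lower in this comparison. STM itself averaged 814 CPM in the mock libraries and 822 CPM in the DEX libraries against 46.8 CPM in wild type, with reads of the transgene included. The DEX and mock libraries differed in STM by 0.01 ± 0.07 on the log2 scale (adjusted p = 0.923).

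Neither gene was called in the ap1-1 mutant. There BOP1 had 2.85, 1.96 and 2.84 CPM from 76, 37 and 56 counts, all below both wild type libraries. The log2 fold change was -0.39 ± 0.18 (interval -0.79 to -0.0034), with an unadjusted p of 0.0483 and an edgeR adjusted p of 0.191. BOP2 had 23.6, 20.0 and 18.6 CPM in ap1-1, values that overlapped wild type, and a log2 fold change of 0.12 ± 0.11 (interval -0.11 to 0.35, adjusted p = 0.534). In this comparison 5.42% of genes were called higher and 5.19% lower. Replicates differed most in these 2 groups, with a chi-square per gene of 17.2 to 32.1 between ap1-1 libraries and 14.2 between the wild type libraries, where the other 4 groups had 3.15 to 7.73.

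In the microRNA line BOP2 was higher than in ap1-1. Its libraries had 33.7 and 31.8 CPM from 632 and 656 counts, above all 3 ap1-1 libraries. The log2 fold change was 0.65 ± 0.11, a 1.57-fold difference at rank 568. BOP1 had 3.09 and 3.68 CPM from 58 and 76 counts, also above all 3 ap1-1 libraries, with a log2 fold change of 0.40 ± 0.19 at rank 1529. Of all genes, 4.87% were called higher and 11.4% lower in this comparison.

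Set against wild type, the BOP1 mean in the microRNA line was about the same and the BOP2 mean was higher. The BOP2 log2 fold change was 0.77 ± 0.12 with no overlap of groups, while that of BOP1 was 0.01 ± 0.20 with overlapping groups. Without microRNA replicate 2 the BOP1 value was -0.14. In this comparison 12.1% of genes were called higher and 16.8% lower. It shares the microRNA libraries with the comparison against ap1-1.

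**Figure D2:**
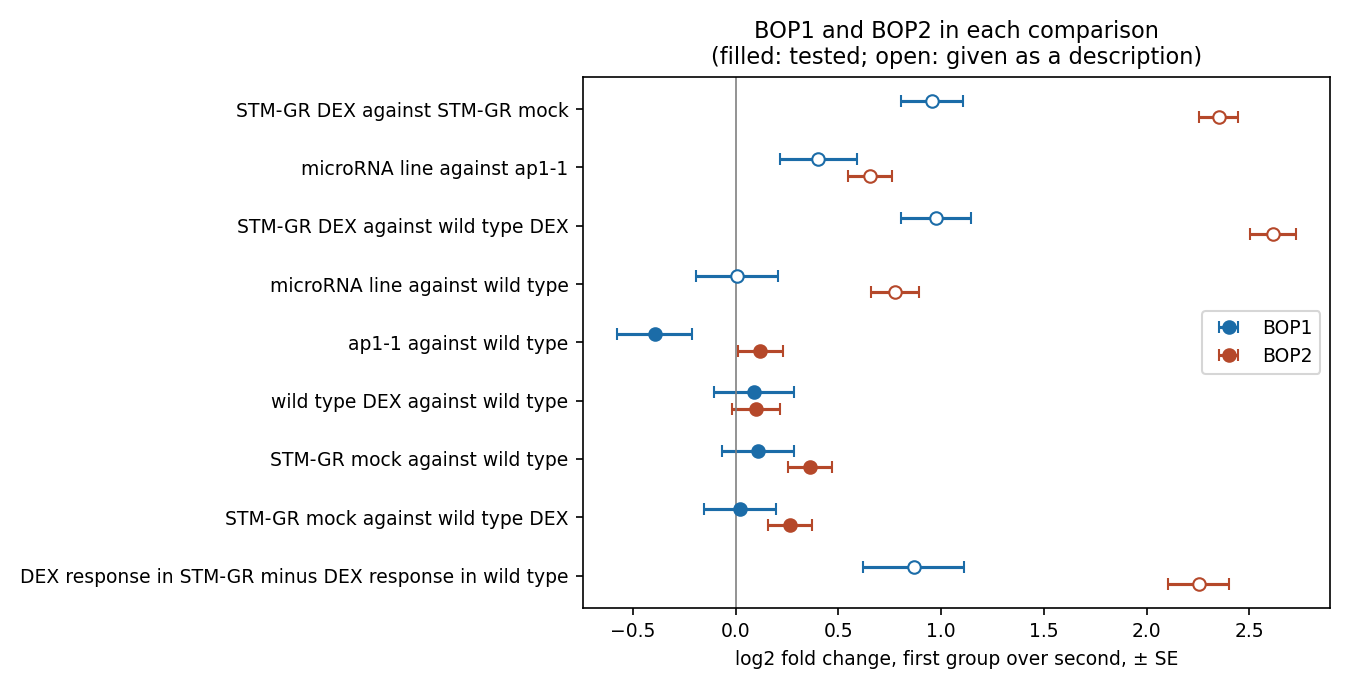
Log2 fold change of BOP1 (blue) and BOP2 (red) in each comparison, first group over second, with bars of ± SE from 1 edgeR fit of all 15 libraries. Filled points were tested and open points are descriptions; BOP2 lies furthest from 0 in the comparisons with STM-GR DEX, at 2.35, 2.61 and 2.25, and the filled points lie between -0.39 and 0.36.

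Ordered by mean level, BOP2 ran from wild type (19.1 ± 0.121 CPM, n = 2) through wild type DEX (20.5 ± 1.47, n = 2), ap1-1 (20.7 ± 2.58, n = 3), STM-GR mock (24.6 ± 2.48, n = 3) and the microRNA line (32.7 ± 1.33, n = 2) to STM-GR DEX (125 ± 8.24, n = 3). The ranges of wild type, wild type DEX and STM-GR mock each overlapped that of ap1-1, while the microRNA line and STM-GR DEX overlapped no other group. Nothing is read from this separation alone. BOP1 ran from ap1-1 (2.55 ± 0.510 CPM) through wild type (3.37 ± 0.194), the microRNA line (3.38 ± 0.419), wild type DEX (3.59 ± 0.144) and STM-GR mock (3.65 ± 0.449) to STM-GR DEX (7.06 ± 0.616). The 4 middle groups of BOP1 all overlapped each other.

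The BOP2 share of the reads of the pair was highest in STM-GR DEX, where the sum of both was also highest. Share and sum did not run together over all groups. BOP2 made up 85.0 ± 0.815% of the counts of the pair in wild type, 85.0 ± 1.42% in wild type DEX and 87.1 ± 0.611% in STM-GR mock (SD over libraries). The share was 89.0 ± 2.16% in ap1-1 and 90.6 ± 1.40% in the microRNA line. In STM-GR DEX it was 94.7 ± 0.224%.

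Each of the 3 STM-GR DEX libraries, at 94.7%, 94.9% and 94.5%, was above every other library, of which the highest was microRNA replicate 1 at 91.6%. The exact 95% binomial intervals of the DEX libraries ran from 93.7% to 95.6% in all, and they cover counting error only. In ratio terms there were 17.8 ± 0.796 BOP2 counts for each BOP1 count in STM-GR DEX, 6.77 ± 0.372 in mock and 5.68 ± 0.363 in wild type. Since these ratios rest on the libraries that chose the pair, no test was made of them.

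**Figure D3:**
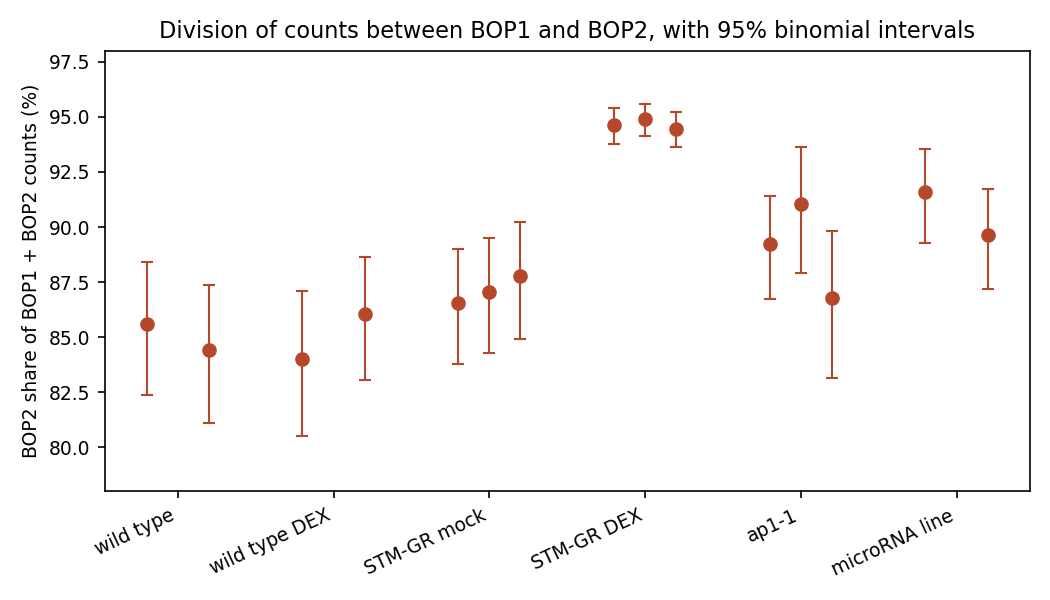
Share of the BOP1 plus BOP2 counts that fell on BOP2, in percent, 1 point per library with its exact 95% binomial interval; the axis does not start at 0. The 3 STM-GR DEX libraries lie between 94.5% and 94.9%, and the wild type libraries at 85.6% and 84.4%.

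The sum of both genes was 22.5 ± 0.0731 CPM in wild type and 132.5 ± 8.77 CPM in STM-GR DEX. It was 36.1 ± 0.906 CPM in the microRNA line and 23.3 ± 2.75 CPM in ap1-1. In STM-GR mock the sum was 28.3 ± 2.90 CPM, above that of ap1-1, although the BOP2 share was lower in mock.

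Genes beside the pair gave a measure of the surrounding region. AT3G57120, which ends 6890 bases upstream of BOP1 on the same strand, was higher in STM-GR DEX than in mock by 0.64 ± 0.12 (edgeR adjusted p = 0.00344). SDP1-LIKE (AT3G57140), a relative of a seed lipase gene, ends 3 bases from BOP1 on the opposite strand and differed by 0.13 ± 0.09 (adjusted p = 0.355). AT2G41360, 1341 bases downstream of BOP2 on the opposite strand, differed by 0.40 ± 0.37 (adjusted p = 0.541).

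The genes that the pair is known to work with were taken as 8 lists of 61 genes, of which 59 were tested. The lists were chosen with earlier results of these data known. Their counts, medians and adjusted p here and below are therefore a description, not independent support. PUCHI, with 3 counts over all libraries, and the abscission signal IDA, with 27, were too low. In STM-GR DEX against mock 12 of the 59 were called higher and 2 lower, beside the 5.56% and 7.15% of all genes. Their median log2 fold change was 0.09, beside 0.01 for all genes tested.

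No gene of the NPR, TGA and CUL3 lists was called by edgeR after DEX. This was 0 of the 4 NPR relatives, 0 of the 10 TGA factors and 0 of the 3 CUL3 ligase genes in edgeR. Of all genes, 5.56% were called higher and 7.15% lower, so by that share alone few calls would fall in lists this short. At an unadjusted p under 0.05 the counts were 0, 3 and 0, with no share of all genes given at that threshold. DESeq2 and limma on the normalized values called 0 of each, and limma-voom called 1 TGA gene. The medians were 0.13, 0.12 and 0.04.

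Of the 7 KNOX and BELL genes 4 rose in the STM-GR DEX libraries and none fell, beside 5.56% and 7.15% of all genes. The list median was 0.31. KNAT2 rose by 1.23 ± 0.10 (adjusted p = 3.12e-06), KNAT1, the BP gene that represses BOP genes in stems, by 0.67 ± 0.13 (0.00284) and PNF, a BELL gene, by 0.61 ± 0.13 (0.00551). ATH1, a BELL gene of organ bases, rose by 0.31 ± 0.08 (0.0173), a call lost without DEX replicate 3 (adjusted p = 0.102), mock replicate 1 (0.0549) or mock replicate 3 (0.0773). KNAT6 (0.13 ± 0.10), PNY (0.05 ± 0.08) and STM (0.01 ± 0.07) were not called.

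Among the floral meristem and leaf genes tied to the pair, 4 of 9 rose and none fell, with a median of 0.33. The share of all genes called was 5.56% higher and 7.15% lower. LFY, whose promotion of flower identity the pair aids, rose from 6.22 to 9.51 CPM, by 0.61 ± 0.13 (edgeR adjusted p = 0.00707). AP1 rose by 0.66 ± 0.06 (7.92e-06) and AS1, a leaf gene that represses KNOX genes, by 0.64 ± 0.07 (1.68e-05). PIF4, whose protein BOP2 is known to send to degradation, rose by 0.33 ± 0.09 (0.0267), and it lost the call without any 1 of DEX replicates 1 and 2 or the mock replicates, at adjusted p of 0.125, 0.141, 0.0803, 0.0518 and 0.111 in that order.

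Of the organ boundary genes, which are active where BOP1 and BOP2 are, 2 of 8 were called higher and 1 lower (median 0.09). This stands beside 5.56% and 7.15% of all genes, and the lower call held in few of the alternatives. CUC1, a NAC factor that separates organs, rose further than BOP2: its mock libraries had 3.43, 3.94 and 3.35 CPM and its DEX libraries 46.3, 52.1 and 51.9 CPM, a change of 3.81 ± 0.12 (edgeR adjusted p = 2.08e-10). LSH3 rose by 0.91 ± 0.15 (8.75e-04). CUC2 was called lower at -0.36 ± 0.11 (0.0495), but the call was lost without any 1 of DEX replicates 1 and 2 and mock replicates 1 to 3 (adjusted p of 0.134, 0.161, 0.115, 0.148 and 0.0593). It was also lost in DESeq2 (0.0669), limma-voom (0.0521), the fit with no filter (0.0515), the fit of only the groups compared (0.0719) and the fit with a replicate block (0.0704), so that 3 of 13 alternatives kept it.

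Of the processes the pair is known to feed into, abscission had 1 of 6 genes higher, the receptor kinase gene HAE, at 0.75 ± 0.16 (adjusted p = 0.00548). The list median was 0.16. For STM-GR DEX against mock, 5.56% of all genes were called higher and 7.15% lower. Lignin synthesis had F5H higher at 0.99 ± 0.14 (3.57e-04) and COMT1 lower at -0.63 ± 0.12 (0.00280) among 12 genes, with a median of -0.05.

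**Figure D4:**
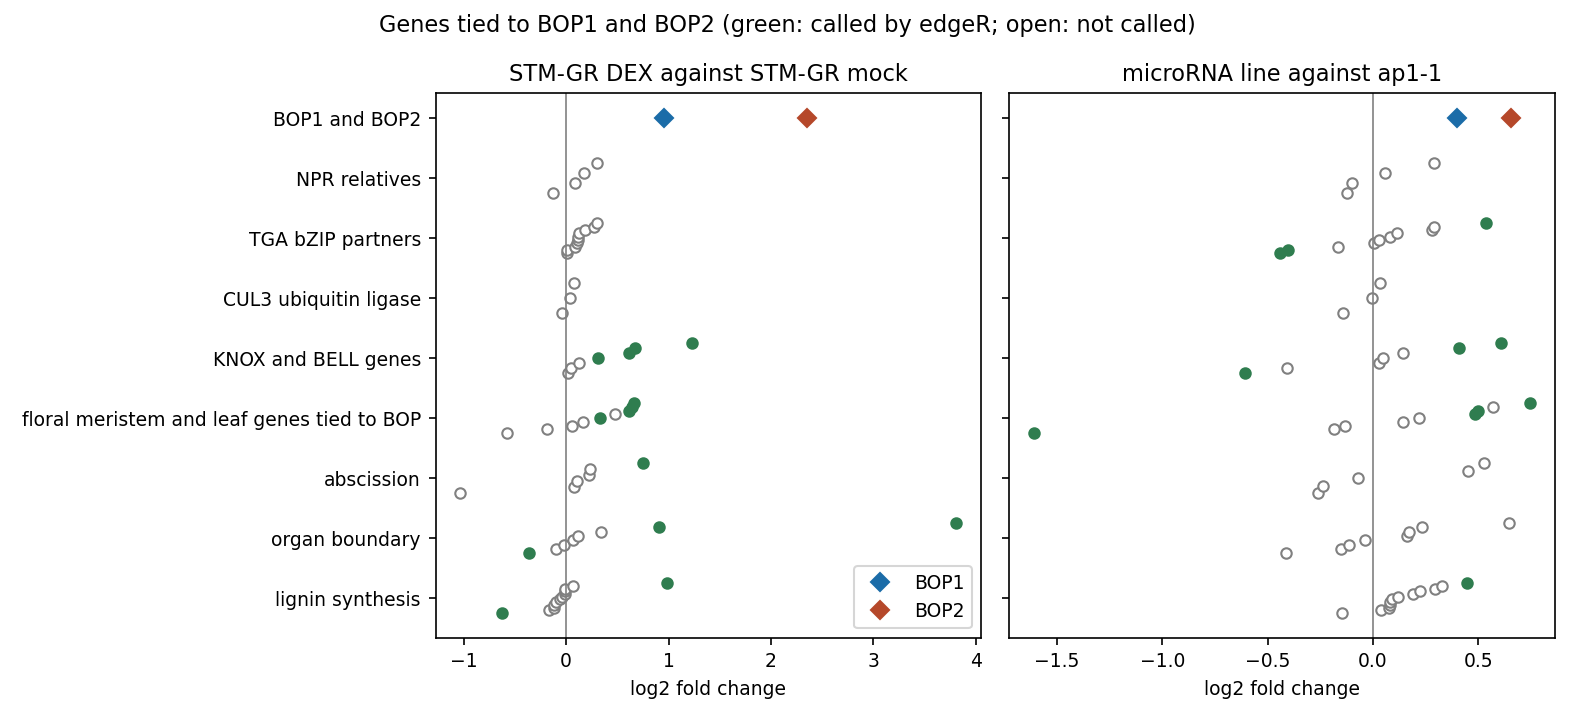
Log2 fold changes of BOP1 and BOP2 (diamonds) and of the genes in the 8 related lists (circles; green where called by edgeR at adjusted p under 0.05, open where not), for STM-GR DEX against mock (left) and the microRNA line against ap1-1 (right, with its own axis range). On the left CUC1 at 3.81 lies beyond BOP2 at 2.35, and on the right PIF4 lies lowest at -1.61; ADPG2, at 0 counts in the microRNA line, is left out on the right.

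In the microRNA line against ap1-1, 7 of the 59 genes were called higher and 5 lower, beside 4.87% and 11.4% of all genes (medians 0.08 and -0.00071). Without microRNA replicate 2 there were 4 higher, and without either microRNA library 3 lower. STM, a target of the microRNA, fell by 0.61 on the log2 scale (SE 0.08, edgeR adjusted p = 1.49e-04). The other target, KNAT1, was at -0.41 ± 0.14 and not called (0.0701). No NPR relative (median -0.02), CUL3 gene (-0.0056) or boundary gene (0.06) was called by edgeR, DESeq2, limma-voom or limma on normalized values. At an unadjusted p under 0.05 there were 0, 0 and 1 of them, with no share of all genes given there.

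The TGA list, of the bZIP type through which the pair acts, had 1 of 10 genes higher and 2 lower in the microRNA line (median 0.05). The share of all genes called was 4.87% higher and 11.4% lower. TGA7 was higher by 0.54 ± 0.15 (edgeR adjusted p = 0.0238), TGA9, an anther factor, lower at -0.40 ± 0.09 (0.00711) and TGA10 lower at -0.44 ± 0.14 (0.0376). All 3 calls were lost without microRNA replicate 1, at adjusted p of 0.066, 0.0797 and 0.0575. Without microRNA replicate 2 those of TGA7 and TGA10 were lost (0.227 and 0.325), without ap1-1 replicate 2 likewise (0.0708 and 0.0597), and without ap1-1 replicate 1 that of TGA10 (0.106). With only the groups compared in the fit none of the 3 was called (0.105, 0.115 and 0.176), TGA7 was lost with a replicate block (0.0525) and TGA10 in limma-voom (0.055).

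The BELL genes PNF (0.61 ± 0.14, adjusted p = 0.00824) and ATH1 (0.41 ± 0.09, 0.00632) rose in the microRNA line, and both lost the call without microRNA replicate 2 (0.128 and 0.0815). KNAT2 (0.14 ± 0.12), KNAT6 (0.03 ± 0.12) and PNY (0.05 ± 0.09) were not called. The median of the KNOX and BELL list was 0.05.

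Of the floral and leaf genes 3 of 9 rose, AS1 (0.50 ± 0.07, edgeR adjusted p = 2.17e-04), AP1 (0.49 ± 0.07, 1.82e-04) and AGL24 (0.75 ± 0.13, 0.00124), and PIF4 fell by 1.61 (SE 0.11, 7.35e-07), with a list median of 0.22. The share of all genes called was 4.87% higher and 11.4% lower. AGL24 is an inflorescence gene that BOP1 and BOP2 are known to help restrain in flowers. In the lignin list 4CL1 alone rose, by 0.45 ± 0.08 (0.00167), with a median of 0.11. ADPG2, an enzyme gene of cell separation, had 0 counts in the microRNA line and 27 in ap1-1, at least 5.43-fold lower against a floor of 3 counts over the group, a call (adjusted p = 0.0115) lost without microRNA replicate 1 (0.0681) or 2 (0.0918). The abscission list had a median of -0.15, with ADPG2 at its bound as well.

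Markers of other tissues moved with the microRNA line and stand beside the BOP2 value there. The 3 mature pollen markers summed to 222 to 227 CPM in the microRNA line and to 772 to 1003 CPM in ap1-1. The 3 carpel and ovule markers summed to 39.4 to 40.0 CPM against 64.6 to 83.0 CPM. All 6 pollen and carpel genes were called lower, beside 11.4% of all genes (4.87% were called higher). Of the photosynthetic markers LHCB2.1 (152 against 489 CPM) and LHCA1 (1064 against 1769 CPM) were called lower and RCA (2429 against 1872 CPM) higher, and the list summed to 3460 to 3830 CPM against 3633 to 4718 CPM. Of the 6 meristem markers tested, STM and WUS (at 27.1 CPM in ap1-1, with a log2 fold change of -0.95 ± 0.12) were called lower and AP1 higher, and no tapetum or xylem marker was called. In the STM-GR comparison the pollen sums were 1382 to 1629 CPM with DEX and 1066 to 1414 CPM with mock, and the carpel sums were 66.0 to 83.4 and 73.6 to 80.5 CPM, with 0 of the 6 genes called by edgeR. Of the 6 meristem markers, 4 were called higher there with a median of 0.57, namely LFY, AP1, CLV1 (75.2 against 52.1 CPM) and UFO (2.52 against 0.951 CPM), while WUS was at -0.23 ± 0.10 and not called. The meristem markers, with the STM transgene included, summed to 1198 to 1300 CPM with DEX and 1082 to 1102 CPM with mock. No photosynthetic, tapetum or xylem marker was called in the STM-GR comparison, where 5.56% of all genes were called higher and 7.15% lower. The part of these tissues in the values of the pair was not tested. The 7 meristem markers were detected with the exception of CLV3, a stem cell gene with 5 counts over all libraries and none in wild type, ap1-1 or wild type DEX.

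In ap1-1 against wild type, where neither BOP gene was called, 10 of the 59 related genes were called higher and 10 lower, beside 5.42% and 5.19% of all genes. AP1 fell by 1.20 (SE 0.07, edgeR adjusted p = 2.21e-07) and PIF4 rose by 1.48 ± 0.10 (1.46e-06), and both calls held without any 1 library. KNAT1, a repressor of the pair in stems, was higher at 0.60 ± 0.14 (0.0176, lost without wild type replicate 1 at 0.155 or 2 at 0.0525), and ATH1 was lower at -0.52 ± 0.09 (0.00255). KNAT6 was higher at 0.40 ± 0.12 (0.0468), a call lost without any 1 of the 5 libraries (0.051 to 0.286), and STM (0.03 ± 0.08), KNAT2 (0.27 ± 0.12), PNY (0.18 ± 0.10) and PNF (-0.07 ± 0.15) were not called. The number called higher was 4 without wild type replicate 1, 5 without wild type replicate 2 and 6 without ap1-1 replicate 1, and the number called lower was 6 without wild type replicate 2. With only the 2 groups in the fit, 1 was higher (PIF4) and 1 lower (AP1), so that the call of ATH1 was lost as well.

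Of the TGA factors PAN was higher (0.64 ± 0.18, lost without wild type replicate 1 or 2 or ap1-1 replicate 1) and TGA1 lower (-0.86 ± 0.23, lost without wild type replicate 1 or ap1-1 replicate 1 or 3). AS1 (0.54 ± 0.07) and AGL24 (0.84 ± 0.15) were higher and COMT1 lower (-0.75 ± 0.13), and these 3 calls held with any 1 library left out. All 3 were lost with only the groups compared in the fit, at edgeR adjusted p of 0.088, 0.0602 and 0.0819. Of the boundary genes CUC2 (0.63 ± 0.12, lost without wild type replicate 2), LSH4 (0.78 ± 0.19, lost without wild type replicate 1), LSH3 (0.61 ± 0.17, lost without wild type replicate 1 or ap1-1 replicate 1) and CUC3 (0.67 ± 0.20, lost without either wild type library or ap1-1 replicate 1) were higher. The abscission genes HSL2 (-0.45 ± 0.11, lost without either wild type library), ADPG2 (-1.62 ± 0.46) and QRT2 (-0.81 ± 0.24) were lower, the last 2 lost without wild type replicate 1 or ap1-1 replicate 2 and ADPG2 also without ap1-1 replicate 3. The lignin genes C4H (-0.42 ± 0.10), 4CL1 (-0.32 ± 0.08) and PAL1 (-0.29 ± 0.08) were lower, all lost without wild type replicate 2, 4CL1 also without ap1-1 replicate 2 and PAL1 without wild type replicate 1. Adjusted p in the losses of these list genes was 0.0509 to 0.392.

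In DEX-sprayed against unsprayed wild type edgeR called 0 of the 59 genes, beside 0.484% higher and 0.134% lower of all genes. DESeq2, limma-voom and limma on the normalized values also called 0. There were 3 at an unadjusted p under 0.05, a threshold with no share of all genes given. In mock-sprayed STM-GR plants against wild type, STM was higher by 4.12 ± 0.09 (adjusted p = 1.90e-12, transgene included) and CUC1 was lower by -0.66 ± 0.14 (0.0303), a call lost without any 1 mock library or without wild type replicate 2 (adjusted p of 0.0535 to 0.494). Against DEX-sprayed wild type, STM alone was called, at 3.98 ± 0.09. Of all genes, 0.949% were called higher and 0.741% lower against wild type, and 0.0184% and 0.0138% against DEX-sprayed wild type.

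In STM-GR DEX against wild type DEX, 14 of the 59 related genes were called higher and 3 lower, beside 4.92% and 5.92% of all genes. The calls that held without any 1 library were CUC1 (3.59 ± 0.14), KNAT2 (1.21 ± 0.12), AS1 (0.94 ± 0.08), F5H (0.94 ± 0.16), AP1 (0.66 ± 0.07), ATH1 (0.64 ± 0.09), PIF4 (0.63 ± 0.10) and STM (4.00 ± 0.09, transgene included), all higher. KNAT1 (0.76 ± 0.14), PNF (0.64 ± 0.14), LFY (0.64 ± 0.15), HAE (0.76 ± 0.18), LSH3 (0.64 ± 0.16) and NEV (0.30 ± 0.08) were higher, and CUC2 (-0.58 ± 0.12), COMT1 (-0.61 ± 0.13) and CYP98A3 (-0.27 ± 0.08) lower, and none of these 9 calls held throughout. Without wild type DEX replicate 1 all but that of KNAT1 were lost, and without replicate 2 all but those of HAE and COMT1. HAE, LSH3, NEV and CYP98A3 were also lost without STM-GR DEX replicate 2, LFY, NEV and CYP98A3 without replicate 3 and NEV without replicate 1 (adjusted p of 0.0581 to 0.267 over all these losses). KNAT6 (0.34 ± 0.12) and PNY (0.12 ± 0.09) were not called. Without either wild type DEX library 9 were higher, and 0 or 1 lower.

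In the microRNA line against wild type, 13 were called higher and 10 lower, beside 12.1% and 16.8% of all genes. The calls that held without any 1 library were PAN (0.92 ± 0.20), AS1 (1.03 ± 0.08), AGL24 (1.59 ± 0.15) and LSH4 (1.01 ± 0.21) higher, and STM (-0.57 ± 0.09), AP1 (-0.71 ± 0.08), COMT1 (-0.71 ± 0.14) and ADPG2 lower, the last with 0 counts against 61 and at least 16.5-fold lower. The TGA factors TGA10 (-0.55 ± 0.14), TGA1 (-0.86 ± 0.26) and TGA9 (-0.33 ± 0.10) and the relative NPR3 (-0.51 ± 0.15) were also lower. Each of these 4 calls was lost without microRNA replicate 2, all but that of TGA10 without microRNA replicate 1, that of TGA1 without wild type replicate 1 and the other 3 without wild type replicate 2 (edgeR adjusted p of 0.0567 to 0.289). KNAT6 (0.43 ± 0.13), PNF (0.54 ± 0.16), KNAT2 (0.41 ± 0.13), NUB (1.17 ± 0.30) and CUC3 (0.83 ± 0.22) were higher and lost the call without microRNA replicate 2 or wild type replicate 1, KNAT2 also without microRNA replicate 1. CUC2 (0.51 ± 0.13) was higher and CAD5 (-0.41 ± 0.11) lower, lost without microRNA replicate 2 or wild type replicate 2, HSL2 was lower (-0.52 ± 0.13, lost without microRNA replicate 1), and LSH3 was higher (0.57 ± 0.18, lost without microRNA replicate 1 or wild type replicate 1). Adjusted p in these losses, from KNAT6 to LSH3, was 0.0694 to 0.243. KNAT1 (0.19 ± 0.16), PNY (0.23 ± 0.10) and ATH1 (-0.11 ± 0.10) were not called. The number higher was 5 without microRNA replicate 2 or wild type replicate 1, and the number lower was 6, 5 and 6 without microRNA replicate 1, microRNA replicate 2 and wild type replicate 2.

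The genes whose levels over the 6 groups were most like those of each BOP gene were different for the 2. Likeness was the root mean square difference between mean-centred mean log2 CPM over the 6 groups, among 8210 named genes, and it is a description of group means that share 1 set of libraries. For BOP1 the closest were SGP1 (AT5G54840, 0.0888), HAI2 (AT1G07430, 0.1004), ABCB1 (AT2G36910, 0.1005), RPK1 (AT1G69270, 0.103) and KT2/3 (AT4G22200, 0.120). HAI2 encodes a phosphatase of abscisic acid signalling, ABCB1 an auxin transporter, RPK1 a receptor kinase and KT2/3 a potassium channel. ABCB1, for instance, averaged 380 CPM in mock and 667 CPM in DEX libraries, with 301 CPM in ap1-1 and 339 CPM in wild type.

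For BOP2 the closest genes were less close, from ENODL18 (AT1G08500, 0.303), TPPI (AT5G10100, 0.315), MYB62 (AT1G68320, 0.329) and AtHB23 (AT1G26960, 0.336) to SQE6 (AT5G24160, 0.384). TPPI encodes an enzyme that makes trehalose, MYB62 and AtHB23 encode transcription factors and SQE6 a member of the squalene epoxidase family. SQE6 averaged 10.9 CPM in mock and 52.1 CPM in DEX libraries, but 8.86 CPM in the microRNA line against 8.87 CPM in ap1-1, where BOP2 was 1.57-fold higher. AtHB23 averaged 11.3 CPM in mock, 34.9 CPM in DEX, 14.1 CPM in the microRNA line and 11.4 CPM in ap1-1.

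Between BOP1 and BOP2 themselves the difference was 0.573. BOP1 was at rank 33 among the genes most like BOP2, and BOP2 was at rank 6056 among those most like BOP1. The measure is not scaled for the size of a gene's changes, which were larger in BOP2. A gene that changes little can therefore be closer to BOP1 than BOP2 is, and these ranks do not compare shape alone. Both genes were highest in STM-GR DEX.

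**Figure D5:**
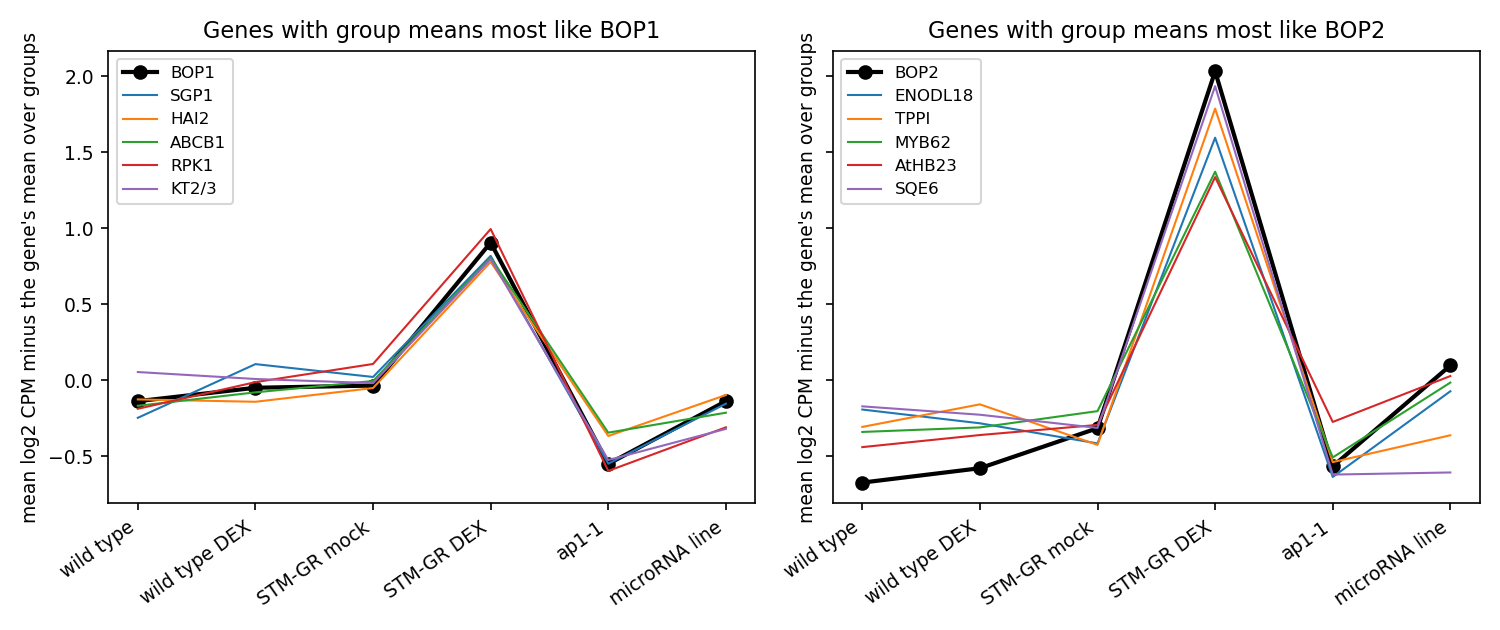
Mean log2 CPM in each group minus the gene's mean over the 6 groups, for BOP1 (left, black) and BOP2 (right, black) with the 5 genes most like each (colours). Both panels peak at STM-GR DEX; BOP2 and AtHB23 are lowest in wild type, and the BOP2 peak is the highest drawn.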

How the data were processed

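RNA from 15 samples described as inflorescence meristem, in 6 groups, was sequenced, and groups and replicate numbers were taken from the sample titles. The authors deposited whole-number read counts per gene for each library, made with TopHat2 2.0.6 and HTSeq 0.62 on TAIR10, per the submitters' processing notes. They also deposited a table of normalized signal, made with DESeq2 per the same notes, whose values equal the counts divided by a size factor (relative difference at most 5e-15). Library totals ran from 18717248 to 26539358 gene counts. The 5 entries that name no gene held 5.49% to 6.63% of reads and were left out. Read length and strand setting are not given in the sources used here.

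The counts were tested with edgeR 4.0.16 in R 4.3.3: TMM scaling, filterByExpr with a minimum count of 10, 1 quasi-likelihood fit of all 15 libraries (common biological coefficient of variation 9.85%), and Benjamini-Hochberg adjustment over the 21716 genes tested, with a call at adjusted p under 0.05. The fit was tested on simulated data. Levels are TMM-scaled CPM, and logarithms used a prior count of 2. Alternatives were DESeq2 1.42.0, limma-voom and limma 3.58.1 on log2(normalized signal + 1), DESeq2 size factors in edgeR, no filter on low counts, only the groups compared, the replicate number as a block, and leaving out each library.

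Names came from RefSeq (28009 of 28775 identifiers matched), and coordinates and sequences from its assembly TAIR10.1. The members and the gene lists were chosen with earlier results of these data known. The genes named were the pair in every comparison, up to 4 called genes with the lowest adjusted p from each list in a comparison, the KNOX and BELL list, and the 5 genes most like each BOP gene, among tested genes with a symbol and an average log2 CPM of at least 1. Deviations of same-numbered samples of different groups had r of -0.13 to 0.12 (17 pairs, 1 over 0.1). The pairs are not all separate, since some repeat each other in the smallest groups. Numbers follow the titles, and the wild type DEX samples carry other numbers in their descriptions, so their pairs may be mismatched. This check therefore cannot exclude a shared batch. No source says that a number marks a shared sowing or day, so the main fit has no block. The first principal component (57.0% of variance) set the microRNA libraries (113.6 and 113.2) apart from the others (-54.9 to 31.7). The mutant allele is called ap1-1 here as on every sample, although the series' own design line writes ap1-4.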

Additional observations from a re-analysis of the deposited data

Results flagged for a closer look

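Among the 59 related genes tested, 5 responded to DEX differently in STM-GR plants than in wild type, by the edgeR test of the difference between both DEX responses. All 5 had the higher value in STM-GR plants, and of all genes tested 0.944% were higher and 0.985% lower in that difference. At an unadjusted p under 0.05 there were 10 of the 59, with no share of all genes given at that threshold. The values come from the same STM-GR libraries as the comparison of DEX with mock, and the lists were chosen with earlier results of these data known. On the log2 scale the STM-GR response minus the wild type response was 4.25 for CUC1 (adjusted p = 4.58e-08), 1.24 for F5H (0.00862) and 1.14 for KNAT2 (0.00175). It was 0.79 for AS1 (7.47e-04) and 0.77 for AP1 (5.68e-04). The mock-sprayed STM-GR plants had Silwet and the unsprayed wild type had none, so the 2 responses do not have the same baseline.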

How the results depend on the processing

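In the 4 tested comparisons neither BOP gene was called under any alternative run. The BOP1 difference between mock STM-GR and wild type DEX turned to -0.069 and -0.026 when mock replicate 2 or wild type DEX replicate 2 was left out, and its range over such fits was -0.069 to 0.11. BOP1 in the microRNA line against wild type ranged from -0.14 to 0.11 and BOP2 from 0.72 to 0.80 with 1 library left out.

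Counts of related genes moved more. Called higher with 1 library left out were 4 to 11 (ap1-1 against wild type), 4 to 9 (microRNA line against ap1-1), 5 to 13 (microRNA line against wild type) and 9 to 13 (STM-GR DEX against wild type DEX). Called lower were 6 to 10, 3 to 6, 5 to 9 and 0 to 3 in that order, 1 to 2 for STM-GR DEX against mock and 0 to 1 for mock against wild type. With only the groups compared in the fit, ap1-1 against wild type had 1 higher and 1 lower, the microRNA line against ap1-1 had 2 lower, STM-GR DEX against wild type DEX had 7 lower and mock against wild type had 0 lower. For mock against wild type DESeq2 called 3 higher, limma on normalized values 2 and limma-voom 0 lower. For STM-GR DEX against mock DESeq2, limma-voom and the fit with no filter each called 1 lower, the lost gene being CUC2. The replicate block gave 2 higher for mock against wild type and 1 lower for STM-GR DEX against mock, and moved no other count of the related genes by over 1.5 times. The causes were not tested.

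The BOP2 share fell slightly when counts were taken per length. Per coding length it was 94.4% in STM-GR DEX. Per exon length, chosen after seeing the data, it was 93.8% there, 89.1% in the microRNA line, 85.1% in mock, 82.7% in wild type and 82.7% in wild type DEX. BOP1 rests on 37 to 191 counts a library, which limits its precision.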
